A study of Mus musculus with 12 samples.

Results

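The genes described here are 36 genes of cartilage, found by their symbols in the deposited tables of 56691 genes. All 36 were present, each on a single row. The tissue was the palatal shelves of mouse embryos at gestational day 12, the paired growths of the upper jaw that later meet to close the palate. There were 12 libraries, 3 from each of 4 groups. Knockout embryos had a conditional knockout of Dnmt1, whose product keeps DNA methylation in place through cell division, and were untreated. Control embryos were wild type and untreated. AzadC embryos were wild type and exposed to 5-aza-2'-deoxycytidine, which is built into DNA and traps DNA methyltransferases there, and vehicle embryos were wild type and received its vehicle. Each library held the shelves of 2 embryos of the same genotype. The Cre driver, the cells it acts in, the drug's dose and timing and the strain were not given in the sources used here. As a result of pooling, the p-values below measure the spread between these pooled libraries, not between single embryos.

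Cartilage begins when mesenchymal cells, in the face mostly of neural crest origin, condense and switch on Sox9. SOX9 protein, together with SOX5 and SOX6, activates the collagens and proteoglycans of the cartilage matrix, among them Col2a1, Col9a1 and Acan. Collagen II fibrils with collagens IX and XI on and in them give the tissue its tensile strength, and aggrecan, bound to hyaluronan through link protein, holds water. Hypertrophic chondrocytes, the last stage before bone replaces cartilage, make collagen X. The palate itself forms from mesenchyme and epithelium and makes bone without a cartilage template, while the nasal septum and the cranial base beside it are cartilage.

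The levels went along with the label only in part. Several members were well expressed and others were at a few counts. Per gene length, as TPM (the length-corrected levels deposited by the authors) averaged over the 12 libraries, the first in order were Col2a1 (292 TPM), Wwp2 (124), Col9a1 (121), Pth1r (70.9), Col11a1 (53.1), Col9a2 (33.9) and Sox9 (30.7). The order differed between groups: Col2a1 was first in each, Wwp2 was second in control, Col9a1 was second in vehicle and AzadC, and Pth1r was second in the knockout. By contrast Acan stood at 2.92 TPM, Matn1 at 0.570, Ihh at 0.341, Comp at 0.231, Matn3 at 0.223, Col10a1 at 0.0475 and Snorc at 0.0375. In all, 14 members had a mean above 10 TPM and 10 had a mean below 1 TPM. Markers of the palatal mesenchyme were expressed in every library, with a summed level over 12 genes of 898 to 1712 CPM (counts after scaling for library size).

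DNMT1 acts on cytosines that are followed by guanine, so the CG content of the stretch before the gene start is shown for 4 members that fell in the knockout against control. The windows cover the 250 bases before the annotated start (RefSeq, build GRCm38.p6), written 5′ to 3′ on the strand of the gene, with every CG in capitals. The Acan window (chr7:79052976-79053225, plus strand) and the Wwp2 window (chr8:107436120-107436369, plus strand) are rich in CG. The Col9a1 window (chr1:24177360-24177609, plus strand, the upstream start of the gene) and the Cnmd window (chr14:79662184-79662433, minus strand) hold none.
Acan: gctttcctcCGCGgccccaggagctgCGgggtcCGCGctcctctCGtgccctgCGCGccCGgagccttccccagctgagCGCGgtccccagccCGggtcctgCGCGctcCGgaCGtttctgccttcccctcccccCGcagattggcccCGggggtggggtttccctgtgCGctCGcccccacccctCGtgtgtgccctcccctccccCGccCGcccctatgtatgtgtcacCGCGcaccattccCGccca
Wwp2: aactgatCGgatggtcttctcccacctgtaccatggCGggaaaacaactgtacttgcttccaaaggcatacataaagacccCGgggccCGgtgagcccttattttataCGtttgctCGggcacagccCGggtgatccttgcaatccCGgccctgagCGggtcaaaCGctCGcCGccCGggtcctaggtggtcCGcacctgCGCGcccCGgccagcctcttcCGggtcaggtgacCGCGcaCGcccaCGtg
Col9a1: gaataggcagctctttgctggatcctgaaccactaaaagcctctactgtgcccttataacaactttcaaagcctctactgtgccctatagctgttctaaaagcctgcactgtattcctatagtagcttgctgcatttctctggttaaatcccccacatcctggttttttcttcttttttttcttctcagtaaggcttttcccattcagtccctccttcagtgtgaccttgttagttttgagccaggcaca
Cnmd: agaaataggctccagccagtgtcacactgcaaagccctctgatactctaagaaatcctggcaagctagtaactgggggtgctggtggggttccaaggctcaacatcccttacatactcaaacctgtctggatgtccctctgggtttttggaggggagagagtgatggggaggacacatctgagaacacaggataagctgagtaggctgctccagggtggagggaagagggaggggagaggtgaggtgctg

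The Acan window has 26 CG, and 9.59% of all 32851 windows have as many or more. The Wwp2 window has 22, reached by 14.8% of all windows. Of the members 26 had at least 1 window in the table, 38 windows in all, with a median of 8.5 CG beside 6 over all windows. Sox9, Col2a1 and Col9a3 had none and are outside these counts. Members that fell in the knockout stood at both ends of this scale. With limits picked after the values were seen, 9 members had a window of 15 or more CG, and of the 8 of them that were tested 6 were lower in the knockout than in control, with a median log2 change of -1.37. Of all tested genes with such a window 6.65% were lower. Another 8 members had no window with 5 or more CG. Of the 6 of them that were tested 5 were lower, with a median of -1.92, beside 7.06% of all tested genes of that kind. Among these 6, Epyc and Cytl1 had enough counts to be tested only with the control libraries in the table. Cytl1 is among the 5, so this count and this median are not independent of the control level. Sox5 is also among the 5, and its only window (chr6:143947107-143947356, minus strand) lies inside its GENCODE M21 span (143828425 to 144781977). For Sox5 the window is therefore not the stretch before the outer start of the gene. The SOX core motifs ACAATG and ACAAAG, searched on both strands, were present in 26.3% of member windows and in 25.2% of all windows. The 10 member windows with a match belonged to 5 members, Sox5, Sox6, Pth1r, Epyc and Col10a1. Sox6 and Epyc had more than 1 such window, so the share over windows is not a share over genes. Methylation itself was not measured in these libraries.

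Depth and the targeted gene were read before the comparisons. The libraries held 12640536 to 33113790 expected counts. Dnmt1 (chromosome 9, 20907209 to 20959888, mm10) had 179.6 to 201 CPM in the knockout, 258 to 286 in control, 448 to 452 in vehicle and 408 to 482 in AzadC, so that the knockout libraries were the lowest 3 of the 12. Of the 36 members 29 passed the filter on low counts and were tested with edgeR over 17335 genes. Epyc and Cytl1 passed only with the control libraries in the table, so the lower level of Cytl1 in the knockout is not independent of the filter. Without these, 20 of 27 tested members were lower against control and 13 lay below all control and vehicle libraries. The 7 untested members were Col10a1, Snorc, Matn1, Matn3, Comp, Ucma and Ihh.

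In the knockout, 6 cartilage genes were lower than in both wild type groups. Sox9 was lower by 3.48-fold against control and 3.17-fold against vehicle, Col2a1 by 3.90-fold and 3.19-fold, and Sox5, Col9a1, Col9a2 and Pth1r were also called against both. Of these, Sox9, Sox5, Col2a1 and Col9a1 kept both calls in all 14 alternative settings of each comparison. The call against vehicle was lost in 5 of 14 settings for Col9a2 and in 6 of 14 for Pth1r. Acan, Matn4 and Cnmd were called against control alone, with all knockout libraries below all vehicle libraries as well, whereas for Papss2, Hapln1, Col11a2 and Susd5 the knockout and vehicle ranges overlapped. Against control, 21 of the 29 tested members were lower and 0 higher at an adjusted p below 0.05, where 6.43% of all tested genes were lower and 7.83% higher. Against vehicle, 6 of 29 were lower and 1 higher, where the shares over all tested genes were 4.13% and 6.7%. Those 6 were lower in both comparisons, as were 2.1% of all tested genes. The median log2 change of the tested members was -1.80 against control and -0.46 against vehicle, beside 0.00 for all tested genes in both comparisons. In whole tissue, fewer cartilage-forming cells and less RNA per cell cannot be told apart.

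**Figure D1:**
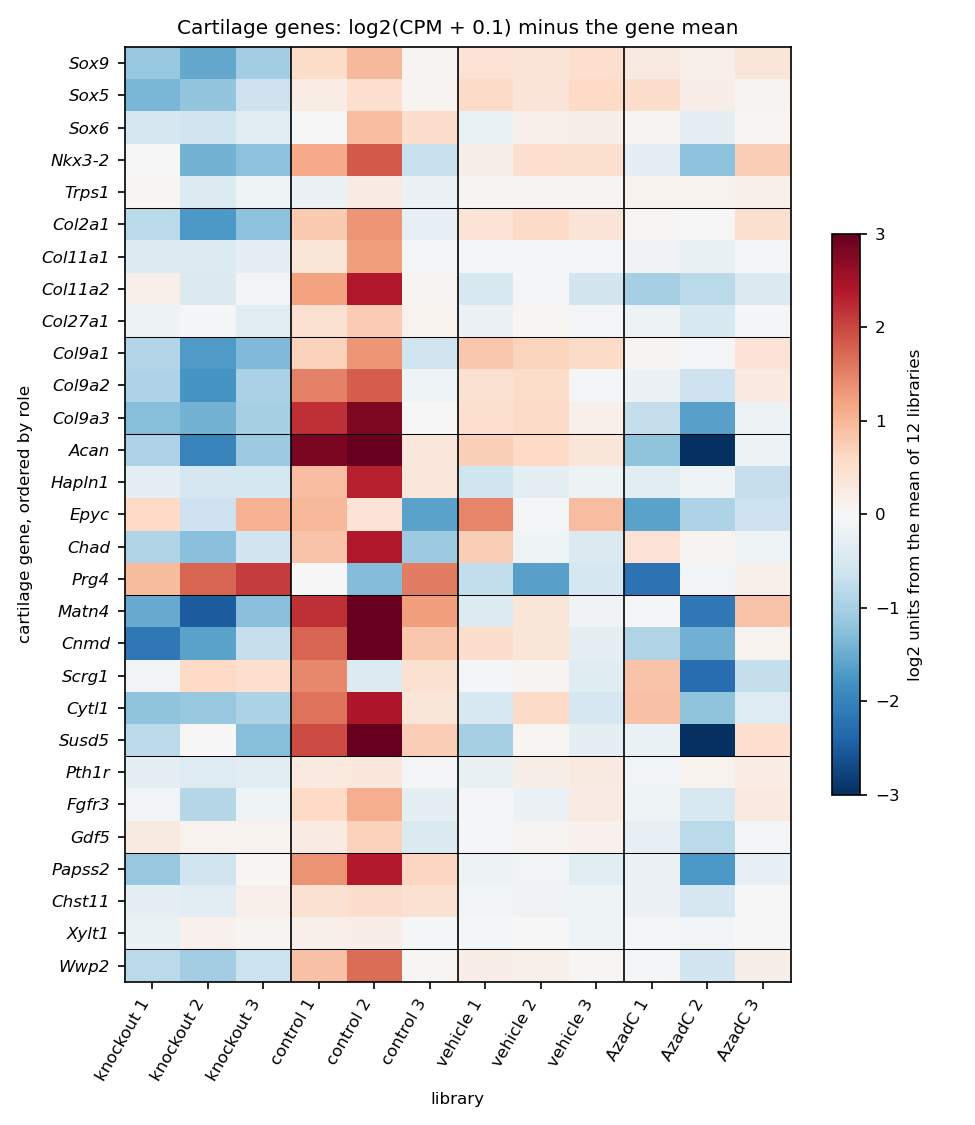
Each row is 1 of the 29 tested cartilage genes, ordered by role with lines between roles, and each column a library; colour gives log2(CPM + 0.1) minus the mean of that gene over the 12 libraries, limited to 3 units either way. Control 2, and after it control 1, hold most of the red cells, while Sox9, Sox5, Col2a1 and the Col9 genes are blue in all 3 knockout libraries.

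The transcription factors come first. Sox9 (chromosome 11, 112782224 to 112787760, plus strand, mm10), which starts and maintains the cartilage fate, had 30.8, 23.6 and 33.3 CPM in the knockout libraries. Control libraries had 99.6, 133 and 71.5 CPM, vehicle libraries 91.5, 89.1 and 97.0, and AzadC libraries 81.6, 75.9 and 87.1. All 3 knockout libraries lay below all 9 others by a factor above 2. The log2 change was -1.80 (SE 0.18, adjusted p = 3.01e-05) against control and -1.67 (SE 0.18, adjusted p = 6.12e-05) against vehicle, a level 3.48-fold and 3.17-fold lower. It kept both calls in all 14 alternative settings of each comparison, with log2 changes of -1.99 to -1.56 against control.

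Sox5, a cofactor of SOX9 that lacks an activation domain of its own, had 16.1, 18.4 and 27.4 CPM in the knockout. It had 48.7, 59.4 and 44.2 CPM in control and 62.1, 55.3 and 64.1 CPM in vehicle libraries. The knockout libraries again lay below all others, with log2 changes of -1.31 (SE 0.18, adjusted p = 0.000349) against control and -1.56 (SE 0.18, adjusted p = 9.26e-05) against vehicle. Of its exon bases, 9.25% overlap Sox5os1 on the other strand, and the strand setting of the counting was not given in the sources used here.

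Sox6, the close relative of Sox5, was also lowest in the knockout, but by less. Its levels were 41.0, 38.4 and 47.2 CPM in the knockout, 57.9, 111.7 and 83.6 in control, and 50.5, 64.8 and 65.4 in vehicle libraries. It was lower than control by 2.0-fold (SE of the log2 change 0.19, adjusted p = 0.00388), and the log2 difference from vehicle was -0.52 (SE 0.19, adjusted p = 0.108). Nkx3-2, a repressor downstream of hedgehog signals that favours the cartilage fate, had 0.197 to 0.685 CPM in the knockout and 0.399 to 2.76 in control, with no call against either group (adjusted p = 0.0641 and 0.282). Trps1, a zinc finger repressor of chondrocyte maturation, had 75.0 to 103.5 CPM in the knockout and 89.2 to 118.2 in control, overlapping ranges with a log2 difference of -0.14 (adjusted p = 0.495).

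**Figure D2:**
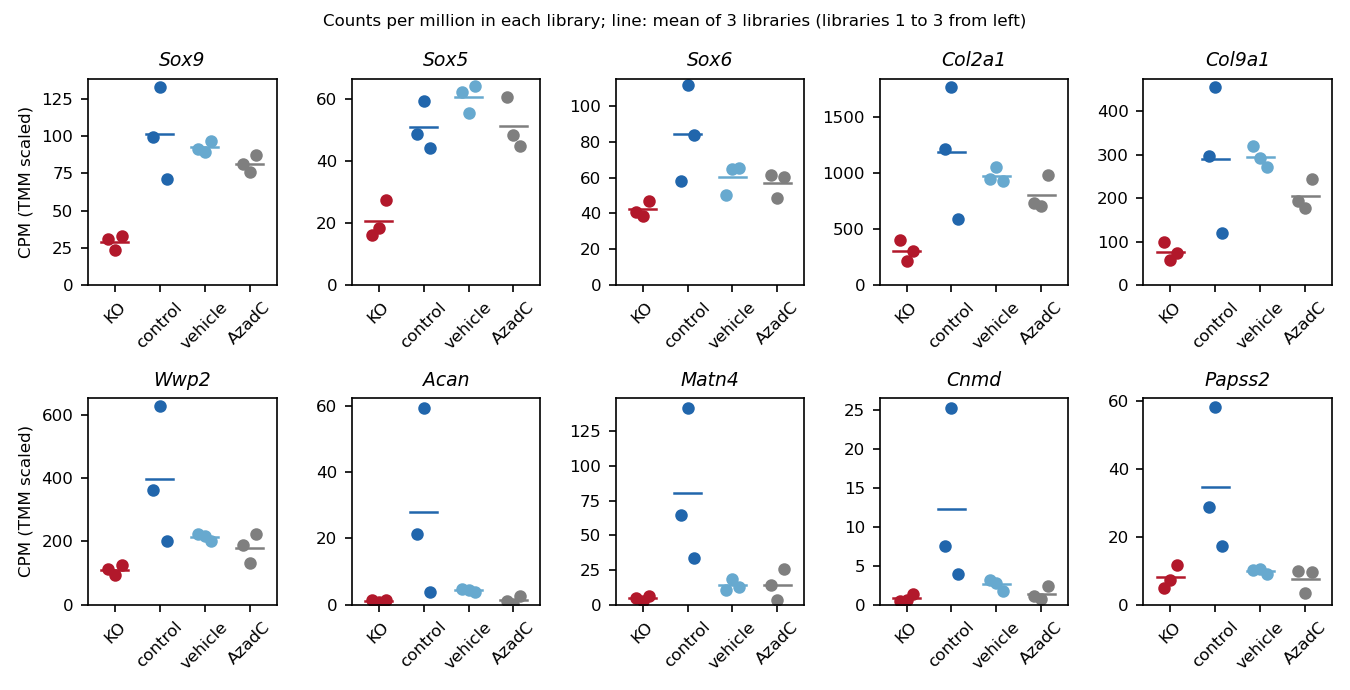
Points are CPM in each library and lines the mean of 3 libraries, for 10 cartilage genes in the knockout (KO), control, vehicle and AzadC groups; each axis starts at 0. The knockout points of Sox9, Sox5, Col2a1 and Col9a1 lie below all other points, whereas for Acan, Matn4, Cnmd and Papss2 control 2 stands far above every other library.

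Among the fibrillar collagens, Col2a1 (chromosome 15, 97975602 to 98004695, minus strand, mm10), the main collagen of cartilage, had 403, 214 and 302 CPM in the knockout. The control libraries had 1221, 1771 and 593 CPM, the vehicle libraries 947, 1053 and 928, and the AzadC libraries 730.1, 709.6 and 989. No knockout library reached any of the others. The log2 change was -1.96 (SE 0.31, adjusted p = 0.00113) against control and -1.67 (SE 0.31, adjusted p = 0.00376) against vehicle. The ratio of Col2a1 to Sox9 in TPM was 7.99 to 11.4 in the knockout, 7.36 to 11.5 in control and 8.57 to 10.4 in vehicle libraries, ranges that overlap.

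Collagen XI sits inside the collagen II fibril. Col11a1 had 151.4, 150.3 and 167 CPM in the knockout, 259, 477 and 194 in control, and 195, 197 and 194 in vehicle libraries. The knockout libraries lay below all 6 of these, with a log2 change of -0.99 (SE 0.23, adjusted p = 0.0107) against control and a difference of -0.32 (SE 0.22, adjusted p = 0.410) against vehicle. Col11a2 had 5.12 to 7.67 CPM in the knockout, 16.1, 36.7 and 7.36 in control, and 4.72 to 6.68 in vehicle libraries, where the knockout and vehicle ranges overlap. It was lower than control by 1.64 log2 units (SE 0.42, adjusted p = 0.0199) and differed from vehicle by 0.24 (adjusted p = 0.787). Col27a1, a fibrillar collagen of growing cartilage, was lower than control by 0.63 log2 units (SE 0.14, adjusted p = 0.0108) and differed from vehicle by -0.10 (adjusted p = 0.741). Without control 2, Col11a2 (adjusted p = 0.105) and Col27a1 (0.0509) lost their calls against control. Col11a2 also lost it without knockout 2 (0.0882) or knockout 3 (0.0526), with limma-voom (0.0665) and with only the groups compared (0.0690). Col11a1 lost it with only the groups compared (0.0567).

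Collagen IX, a trimer of the products of 3 genes that decorates the collagen II fibril, was lower against control in all 3 genes and against vehicle in 2. Col9a1 had 98.7, 56.5 and 73.1 CPM in the knockout, 297, 456 and 119.8 in control, and 319, 292 and 271 in vehicle libraries. These knockout values were below all 6 wild type values, with log2 changes of -1.93 (SE 0.35, adjusted p = 0.00265) against control and -1.95 (SE 0.35, adjusted p = 0.00297) against vehicle. Col9a2 had 23.6, 13.0 and 22.9 CPM in the knockout, 127.7, 158.7 and 41.0 in control, and 61.6, 66.1 and 44.1 in vehicle libraries, also without overlap. It was lower by 2.47 log2 units (SE 0.41, adjusted p = 0.00149) and 1.53 (SE 0.40, adjusted p = 0.0273). The call against vehicle was lost without knockout 2 (adjusted p = 0.125), knockout 3 (0.0567), vehicle 1 (0.0667) or vehicle 2 (0.0784), and with limma-voom (0.0838). Col9a3 had 7.54, 6.84 and 9.19 CPM in the knockout and 84.9, 129.3 and 18.3 in control, a log2 change of -3.31 (SE 0.54, adjusted p = 0.00139). In vehicle libraries it had 26.1, 27.4 and 20.5 CPM, and the difference of -1.65 (SE 0.53, adjusted p = 0.0656) was not called although the groups did not overlap.

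The 3 collagen IX genes were not equally high. In TPM, Col9a1 exceeded Col9a2 by 2.21- to 2.86-fold in control libraries and by 4.09- to 5.79-fold in vehicle libraries. Knockout libraries had ratios of 3.06 to 4.13, between those ranges but for an overlap with the vehicle range. Collagen X, the marker of hypertrophic chondrocytes, was barely detected: Col10a1 had 10 counts in the knockout, 4 in control, 6 in vehicle and 3 in AzadC libraries together.

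Of the proteoglycans and their partners, Acan (chromosome 7, 79053483 to 79115099, plus strand, mm10), which encodes aggrecan, had the largest fitted change against control. Its levels were 1.46, 0.640 and 1.304 CPM in the knockout and 21.2, 59.4 and 3.65 in control libraries. Vehicle libraries had 4.83, 4.40 and 3.71 CPM, near control 3 and well below control 1 and 2. The AzadC libraries had 1.18, 0.121 and 2.57 CPM and overlapped the knockout range. The log2 change was -4.63 (SE 0.87, adjusted p = 0.00347) against control and the difference from vehicle was -1.92 (SE 0.87, adjusted p = 0.190). Without control 2 the change against control stood at -3.46, and with limma-voom it was not called (adjusted p = 0.102).

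Hapln1, the link protein that fixes aggrecan to hyaluronan, had 7.31, 6.35 and 6.22 CPM in the knockout, 17.2, 45.7 and 11.4 in control, and 5.94, 7.33 and 8.07 in vehicle libraries. The knockout range lay inside that of vehicle, and the log2 change of -1.90 against control (SE 0.39, adjusted p = 0.00555) stood beside a difference of -0.11 against vehicle (adjusted p = 0.906). Chad, chondroadherin, which binds integrins on chondrocytes, had 0.295 to 0.533 CPM in the knockout and 1.61, 4.94 and 0.342 in control libraries. Its log2 change of -2.49 (SE 0.72, adjusted p = 0.0355) was not called without control 2 (adjusted p = 0.238), knockout 1 (0.0982), knockout 2 (0.133) or knockout 3 (0.0674), with limma-voom (0.163), with the replicate block (0.0714) or with only the groups compared (0.0918), and its difference from vehicle was -1.17 (adjusted p = 0.369). Epyc, a small leucine-rich proteoglycan, had 78 counts in all libraries together and no call, and 40.65% of its exon bases overlap Gm10754 on the other strand. Snorc, a membrane proteoglycan of chondrocytes, had 2 counts, both in control.

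Prg4, which encodes lubricin, the lubricant of joint surfaces, went the other way. It had 2.19, 3.94 and 4.98 CPM in the knockout and 0.619, 0.289 and 0.726 in vehicle libraries, a rise of 2.78 log2 units (SE 0.73, adjusted p = 0.0271). The control libraries had 1.10, 0.383 and 3.37 CPM, overlapping the knockout, with a log2 difference of 1.24 (SE 0.67, adjusted p = 0.252). The call against vehicle was lost without knockout 2 (adjusted p = 0.0787), knockout 3 (0.0786), vehicle 1 (0.0653), vehicle 2 (0.0986) or vehicle 3 (0.0706). Of its exon bases, 4.77% overlap Tpr on the other strand.

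The matrilins are adaptor proteins that link collagen fibrils to proteoglycans. Matn4 had 4.84, 2.41 and 5.81 CPM in the knockout, 64.9, 142.0 and 33.6 in control, and 10.5, 18.1 and 13.0 in vehicle libraries. The knockout was below all 6, with a log2 change of -4.22 (SE 0.66, adjusted p = 0.000997) against control and a difference of -1.70 (SE 0.65, adjusted p = 0.121) against vehicle. Matn1, the matrilin of mature cartilage, was almost confined to a single library: it had 25, 165 and 1 counts in control 1, 2 and 3, 2, 4 and 2 in the knockout, 1 in the vehicle group and 0 in the AzadC group. A count of 0 over the AzadC group allows up to 3 counts, or 0.0506 CPM. Matn3 had 14, 74 and 1 counts in the control libraries, 5, 1 and 1 in the knockout, 5 in vehicle and 16 in AzadC libraries together.

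Cnmd, chondromodulin, a membrane protein that keeps cartilage free of vessels, had 0.411, 0.640 and 1.304 CPM in the knockout. The control libraries had 7.54, 25.4 and 3.88 CPM and the vehicle libraries 3.16, 2.83 and 1.77, so that the knockout again lay below all 6. The log2 change was -4.00 against control (SE 0.69, adjusted p = 0.00189) and the difference from vehicle -1.74 (SE 0.69, adjusted p = 0.132). Cytl1, a secreted protein of chondrocytes, passed the filter only through the control libraries, and its fitted difference of -3.295 log2 units (SE 0.70, adjusted p = 0.00733) is given as a description. It ran from 0.742 to 3.41 CPM in control to 0.183 to 0.237 in the knockout. Susd5, a hyaluronan-binding domain protein, had 1.37, 2.46 and 0.948 CPM in the knockout, 9.87, 28.2 and 4.17 in control and 1.18 to 2.54 in vehicle libraries, the last range overlapping that of the knockout. Its log2 change of -3.13 (SE 0.76, adjusted p = 0.0144) against control was lost without control 2 (adjusted p = 0.0862), knockout 1 (0.0547) or knockout 3 (0.0525), and with limma-voom (0.0594). Scrg1 was not called against either group, with 0.365 to 0.640 CPM in the knockout. Comp, a protein of cartilage and tendon, had 82 counts in all libraries together, and Ucma, of the upper growth zone, 32.

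The signalling members covered the loop that paces cartilage growth. Pth1r, the receptor for parathyroid hormone-related protein, which holds back hypertrophy, had 71.5, 66.2 and 68.7 CPM in the knockout, 106.5, 108.3 and 85.3 in control, and 75.1, 98.0 and 104.5 in vehicle libraries. The groups did not overlap, and the log2 changes were -0.54 (SE 0.12, adjusted p = 0.00965) against control and -0.43 (SE 0.12, adjusted p = 0.0374) against vehicle. The call against vehicle was lost without knockout 1 (adjusted p = 0.0640), knockout 2 (0.135), knockout 3 (0.0882), vehicle 2 (0.105) or vehicle 3 (0.161), and with the replicate number as a block (0.0589). Ihh, Indian hedgehog, the signal of prehypertrophic chondrocytes, had 33, 82 and 7 counts in control libraries, 4, 0 and 0 in the knockout, 15 in vehicle and 11 in AzadC libraries together. Fgfr3, a brake on chondrocyte division, had 12.6 to 21.5 CPM in the knockout and 18.4 to 48.5 in control, with a log2 difference of -0.89 (SE 0.30, adjusted p = 0.0656). Gdf5, a ligand of joint-forming cells, had 3.84 to 4.34 CPM in the knockout and 2.62 to 5.82 in control, overlapping ranges with a difference of -0.09 (adjusted p = 0.882), and 40.3% of its exon bases overlap Gm15557 on the other strand.

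The sulfation members supply the charged chains of aggrecan. Papss2, which makes the sulfate donor, had 4.98, 7.28 and 11.7 CPM in the knockout, 28.6, 58.0 and 17.3 in control, and 10.02, 10.5 and 8.99 in vehicle libraries. It was lower than control by 2.13 log2 units (SE 0.44, adjusted p = 0.00614), and the vehicle values lay within the knockout range (difference -0.31, adjusted p = 0.722). Chst11, which sulfates chondroitin, had 19.2, 18.3 and 25.8 CPM in the knockout, 32.3, 33.5 and 32.2 in control, and 22.2, 21.9 and 21.5 in vehicle libraries. It was lower than control by 0.63 log2 units (SE 0.14, adjusted p = 0.00859) and differed from vehicle by -0.05 (adjusted p = 0.868). Xylt1, which starts the chain, ran from 12.2 to 15.6 CPM in the knockout and from 13.8 to 16.2 in control, with no call.

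Wwp2, a ubiquitin ligase gene that carries the cartilage microRNA gene Mir140 in its span and is a target of SOX9, had a mean of 229.7 TPM in control, 115.2 in vehicle, 97.0 in AzadC and 53.2 in the knockout libraries. It had 111.3, 94.7 and 124.9 CPM in the knockout, 362, 626 and 201 in control, 224, 217 and 201 in vehicle, and 188, 130.6 and 222 in AzadC libraries. The knockout libraries lay below all 9 others. The log2 change was -1.85 (SE 0.31, adjusted p = 0.00148) against control, and the difference from vehicle was -0.96 (SE 0.30, adjusted p = 0.0599).

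**Figure D3:**
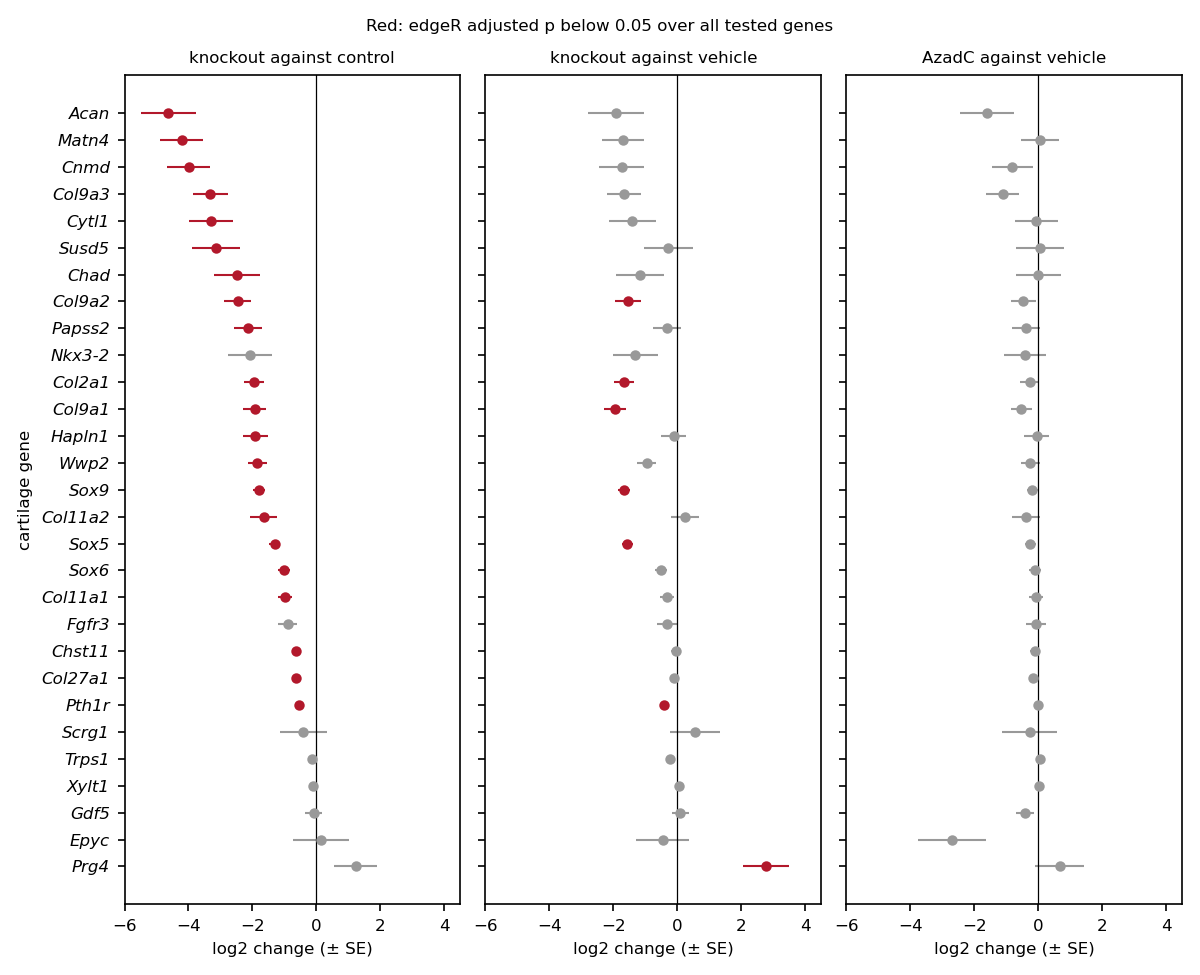
Points are fitted log2 changes with their SE for the 29 tested cartilage genes, ordered by the change against control, in knockout against control, knockout against vehicle and AzadC against vehicle; red marks an edgeR adjusted p below 0.05 over all tested genes. In the left panel 21 genes are red and below 0, in the middle panel 6 are red below 0 and Prg4 is red above 0, and in the right panel no gene is red.

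Counted by separation rather than by the test, 19 of the 29 tested members had all knockout libraries below all control libraries, where 15.1% of all tested genes did. Below all vehicle libraries there were 17, where 14.4% of all genes were. Below all 6 there were 14, beside 6.66% of all tested genes. None was above all 6, where 8.8% of all genes were. The 14 were Sox9, Sox5, Sox6, Col2a1, Col11a1, Col9a1, Col9a2, Col9a3, Acan, Matn4, Cnmd, Cytl1, Pth1r and Wwp2. Cytl1, which is in the 19, the 17 and the 14, passed the filter only with the control libraries in the table. Its place in these counts is therefore not independent of the filter. Without Cytl1 and Epyc, 13 of 27 tested members lay below all 6. Sox9, Sox5, Sox6, Col2a1, Col11a1, Col9a1, Col9a2, Pth1r and Wwp2 also had all knockout libraries below the AzadC libraries, so that 9 of 29 were below all 9 other libraries, as were 4.85% of all genes, and 0 were above them, as 7.02% were. The count of calls against vehicle was higher in some settings. When only the 6 knockout and vehicle libraries were fitted, 13 members were lower: the 6 called before and Sox6, Col11a1, Col9a3, Acan, Matn4, Cnmd and Wwp2. In that fit 4.22% of all tested genes were lower, close to the 4.13% over 12 libraries. With no filter on low counts 12 were lower, where 2.84% of all genes were.

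The 2 wild type groups differed from each other in 5 members, and 0 members were higher in vehicle, where 1.46% of all tested genes were. In vehicle against control, Matn4 (log2 change -2.52, SE 0.59, adjusted p = 0.0336), Hapln1 (-1.80, SE 0.38, adjusted p = 0.0243), Col11a2 (-1.88, SE 0.42, adjusted p = 0.0296), Papss2 (-1.82, SE 0.43, adjusted p = 0.0368) and Chst11 (-0.58, SE 0.14, adjusted p = 0.0366) were lower. That is 5 of 29, where 2.06% of all tested genes were lower. The values for other members were -0.14 for Sox9 (adjusted p = 0.733), 0.25 for Sox5 (0.469), -0.29 for Col2a1 (0.665) and 0.01 for Col9a1 (0.997). This comparison is also the test of whether the knockout difference depends on the wild type group it is set against. The count was 0 without vehicle 1, vehicle 2 or vehicle 3, where 0.502%, 1.41% and 0.48% of all tested genes were still lower, although the fitted changes stayed close: Hapln1 had -1.69, -1.81 and -1.90, and Chst11 had -0.59, -0.58 and -0.57. It was 1 without control 2, where Hapln1 had -1.01, and 13 without control 3. With limma-voom or with the replicate number as a block it was 3. Of all tested genes 1.05%, 1.2%, 2.18% and 1.79% were lower in these settings, in that order.

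The control libraries were far from alike. Control 2 had the highest level of the 12 libraries in 25 of the 29 tested members, and control 3 the lowest of its group in 26. Control 2 exceeded control 3 by more than 2-fold in 18 of the 28 members with counts in both, by 16.3-fold for Acan, 14.4-fold for Chad and 7.06-fold for Col9a3, but by 1.34-fold for Sox5 and 1.04-fold for Chst11. The median SD of log2 CPM within the control group was 0.98 over the tested members and 0.17 over all tested genes. In the vehicle group these were 0.21 and 0.15, in the knockout 0.38 and 0.15, and in AzadC 0.39 and 0.15. Summed over the 36 members, control libraries had 1344, 2134 and 761.5 TPM and vehicle libraries 976, 1017 and 966. The knockout libraries had 482.5, 343 and 452 TPM and the AzadC libraries 784, 655 and 965. Without control 2, 17 members stayed lower in the knockout than in control, all among the 21 called with it. Chad, Col11a2, Col27a1 and Susd5 lost the call. In that fit 3.53% of all tested genes were lower.

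AzadC against vehicle gave no call among the members: 0 of 29 passed by edgeR, DESeq2 or limma-voom. Over all genes the calls were also few, 0.00577% lower and 0.00577% higher by edgeR, and 0.0461% and 0.467% by DESeq2. The median of the tested members was -0.18 log2 units. Col9a1 was 193, 177 and 243 CPM in AzadC libraries and 271 to 319 in vehicle libraries, without overlap, a difference of -0.52 (SE 0.34, adjusted p = 0.884). Of the 29, 6 members, Sox9, Col9a1, Col9a3, Acan, Epyc and Gdf5, had all AzadC libraries below all vehicle libraries, where 5.76% of all tested genes did. Of these, Epyc was near the floor, with 4 counts in AzadC and 30 in vehicle libraries together. It passed the filter on low counts only with the control libraries in the table. Trps1 alone had all AzadC libraries above all vehicle libraries, where 6.1% of all tested genes did. AzadC 2 was the lowest library of its group in 21 of the 29 and AzadC 3 the highest in 22, so that the spread within the group was wide: Acan was 0.121 CPM in AzadC 2 and 2.57 in AzadC 3, and Matn4 was 3.09 and 25.4. The difference between the knockout effect and the AzadC effect, each taken against its own wild type group, was called for Sox9, Sox5, Col2a1 and Matn4, 4 of 29 lower where 2.2% of all tested genes were lower. That count ran from 1 without knockout 2, where 0.895% of all tested genes were lower, to 15 without control 3, where 1.91% were.

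Other genes of the pathway were read from lists that hold no member. Of 34 further cartilage genes 31 were tested, and 2 were lower and 1 higher in the knockout than in control, with a median of -0.12 log2 units. These counts are near the shares over all tested genes, 6.43% and 7.83%. Prelp, a matrix protein anchoring collagen to basement membranes, had 3.38 ± 1.62 CPM in control and 0.529 ± 0.247 CPM in the knockout (SD, n = 3). It fell by 2.66 log2 units (SE 0.60, adjusted p by edgeR 0.0104), and lost the call without control 2 (0.0521). Otor changed by -0.83 (SE 0.24, adjusted p = 0.0316) and Barx2, a homeobox gene, by 1.64 (SE 0.46, adjusted p = 0.0296). Otor lost its call without control 2 (0.0589), control 3 (0.107), knockout 1 (0.113) or knockout 2 (0.108), with no filter (0.0623), with the replicate block (0.0511) or with only the groups compared (0.0592), and Barx2 without control 2 (0.114), control 3 (0.0814), knockout 1 (0.0986) or knockout 2 (0.0993).

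Against vehicle 1 of these 31 was lower and 3 were higher, near the shares over all tested genes of 4.13% and 6.7%. Ptch1, the hedgehog receptor, fell by 0.54 log2 units (SE 0.09, adjusted p = 0.0024). Itm2a, a membrane protein of early chondrocytes, rose by 0.71 (SE 0.12, adjusted p = 0.00212), Matn2 by 1.47 (SE 0.30, adjusted p = 0.0066) and Cilp2 by 2.29 (SE 0.65, adjusted p = 0.0372). Cilp2 lay below 1 CPM in all libraries and lost its call without knockout 1 (0.120), knockout 2 (0.0828), knockout 3 (0.0688), vehicle 1 (0.0794) or vehicle 2 (0.126), with no filter (0.0549), with the replicate block (0.0619) or with only the groups compared (0.0722).

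Of 29 genes that build and sulfate glycosaminoglycan chains, 28 were tested and 6 were lower against control and 0 higher, with a median of -0.17, where 6.43% of all tested genes were lower and 7.83% higher. Ugdh, which makes the sugar precursor, fell by 0.41 (SE 0.06, adjusted p = 0.00108), Chst14 by 0.46 (SE 0.10, adjusted p = 0.0068), Papss1 by 0.25 (SE 0.06, adjusted p = 0.0175) and B4galt7 by 0.39 (SE 0.10, adjusted p = 0.0184). Papss1 lost its call without control 2 (0.0670), knockout 1 (0.0540) or knockout 2 (0.0928) or with only the groups compared (0.0572), and B4galt7 without control 1 (0.0528), control 2 (0.0547), knockout 1 (0.0563) or knockout 2 (0.0704). Against vehicle 1 of 28 was lower and 0 higher, beside 4.13% and 6.7% of all tested genes. This was Ugdh, by 0.22 (SE 0.07, adjusted p = 0.0431), which lost the call without knockout 1 (0.155), knockout 2 (0.110), vehicle 1 (0.116), vehicle 2 (0.104) or vehicle 3 (0.0969), with no filter (0.0713), with the replicate block (0.0521) or with only the groups compared (0.0638).

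Markers of other cell types were read in 9 lists, whose counts stand beside the shares over all tested genes: 6.43% lower and 7.83% higher against control, 4.13% and 6.7% against vehicle, and 2.06% lower in vehicle than in control. Of 13 osteoblast genes 9 were tested, with 4 lower in the knockout than in control, 0 against vehicle, and 4 lower in vehicle than in control. Their summed level was 126.6 to 235 CPM in the knockout, 344 to 455 in control, 218 to 245 in vehicle and 291 to 300.1 in AzadC libraries. Bglap, Bglap2 and Dmp1 stayed under 1 CPM in every library, and Mepe was at 0. Ibsp, bone sialoprotein, had 5.22, 14.9 and 2.91 CPM in control libraries and 0.237 or less in each knockout and vehicle library. Control 3, lowest in cartilage genes within its group, was the highest library in the osteoblast sum.

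Of 14 skeletal muscle genes 13 were tested and 8 were higher in the knockout than in control, with none called against vehicle. Their sum was 195 to 1189 CPM in the knockout, 6.33 to 119.5 in control, 51.1 to 481 in vehicle and 45.6 to 203.5 in AzadC libraries, and Ckm was under 1 CPM in every library. All 10 macrophage genes were higher against both groups, with sums of 308 to 350 CPM in the knockout and 68.9 to 108.5 in control and vehicle libraries. Of 12 palatal mesenchyme genes 3 were lower against control and 2 against vehicle, with sums of 898 to 1402 CPM in the knockout, 1247 to 1712 in control and 907 to 1130 in vehicle libraries. Tendon and joint markers summed to 27.9 to 43.9 CPM in the knockout, 44.0 to 59.0 in control and 36.2 to 44.2 in vehicle, the last overlapping the knockout, and 1 of 4 tested was lower against control and 0 against vehicle. Neuron markers summed to 70.8 to 82.8 CPM in the knockout, 66.1 to 94.4 in control and 54.5 to 59.1 in vehicle, with 1 of 9 lower and 1 higher against control and 2 higher against vehicle. Schwann and glial markers summed to 157 to 190.0 CPM in the knockout, 94.9 to 158 in control and 102 to 139.7 in vehicle, with 1 of 9 higher against each. Endothelial markers summed to 349 to 426.5 CPM in the knockout, 443 to 455 in control and 411 to 467 in vehicle, with 1 of 8 lower against control and 0 against vehicle. Epithelial markers summed to 191 to 359.9 CPM in the knockout, 203 to 374 in control and 316 to 339 in vehicle, with 1 of 11 higher against control and 1 lower and 1 higher against vehicle. The part of these in the cartilage differences was not tested.

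**Figure D4:**
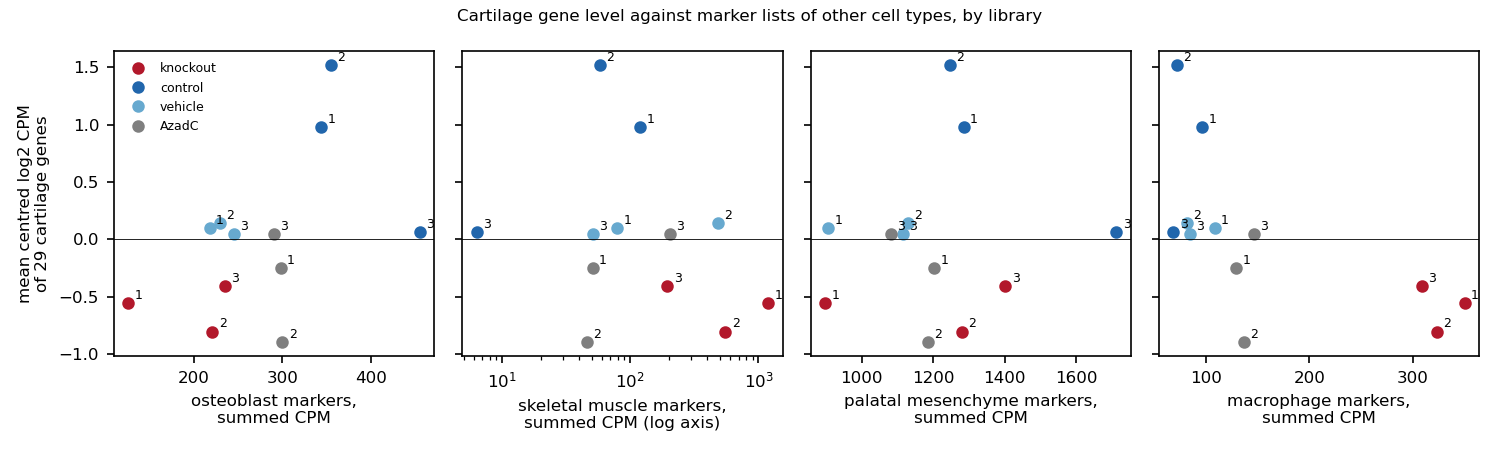
Each point is a library, numbered by replicate and coloured by group; the vertical axis is the mean centred log2 CPM of the 29 tested cartilage genes and the horizontal axes the summed CPM of marker lists for osteoblasts, skeletal muscle (log axis), palatal mesenchyme and macrophages. Control 1 and 2 stand above all other libraries on the vertical axis at 0.98 and 1.52, and control 3, at 0.07, sits with the vehicle libraries while having the highest osteoblast and palatal mesenchyme sums.

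The 10 genes outside the list whose log2 CPM followed the mean of the tested members most closely over the 12 libraries were Cthrc1 (Pearson r 0.97), Loxl3 (0.95), Cspg4 (0.94), P3h4 (0.94), Tmem8b (0.93), Nrbp1 (0.93), Dok4 (0.93), Robo2 (0.93), Extl1 (0.93) and Arfgap1 (0.93). The libraries share their groups and their depth in these values, and no test was made. Cthrc1, a secreted collagen triple helix repeat protein, had a mean of 21.2 CPM in the knockout, 45.7 in control, 27.8 in vehicle and 26.8 in AzadC libraries. Cspg4, the NG2 proteoglycan, had 15.2, 39.7, 21.6 and 19.7 CPM in the same order. Within the list, Col9a3 (0.99), Acan (0.97) and Wwp2 (0.97) followed the mean most closely. Sox9 stood at 0.71 and Sox5 at 0.53, and Prg4 had the only negative value (-0.41). Each member is itself part of that mean, so these values cannot be set beside those of the genes outside the list.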

How the data were processed

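RNA was measured in 12 libraries of palatal shelves. The authors deposited expected counts per gene and TPM (levels corrected for effective length) from RSEM, per the file headers. The submitters' processing notes name the mm10 build, STAR 2.7.0 and RSEM 1.3.1, beside Trim Galore, FastQC and DESeq2. The annotation release and strand setting were not given in the sources used here. RSEM divides reads that match several genes, so its counts need not be whole.

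The expected counts, rounded to integers, were tested in edgeR 4.0.16 under R 4.3.3. After filterByExpr, 17335 genes remained. TMM factors ran from 0.985 to 1.01, and the model had a mean for each group, with all 12 libraries sharing the spread (glmQLFit, glmQLFTest). The common biological coefficient of variation was 0.152. Unless another tool is named, an adjusted p is from edgeR's quasi-likelihood test with Benjamini-Hochberg adjustment over all tested genes, with a threshold of 0.05. An SE is the size of the log2 change over the root of F. CPM are TMM-scaled. TPM served to compare genes with each other, and also for the sums over the 36 members by library and the group means of Wwp2. No test used TPM. Floors (3 counts over a group) cover counting error only. Positions and exon overlaps came from GENCODE M21 (mm10). Libraries of a group differed by more than sampling noise (chi-square per degree of freedom 6.92 to 21.8), so no library repeated the counts of another. This check cannot show that the libraries are independent, and each was taken as a replicate by its label.

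Other settings tried were DESeq2 1.42.0, limma-voom (limma 3.58.1), scaling by RLE or the upper quartile, genes unfiltered or kept above 1 CPM on average, a fit of the compared groups alone, a block for the replicate number, and each library left out in turn. The scripts were tested on simulated data. The cartilage genes and all lists were chosen with earlier results of these data known, so no list was tested as a set. By rule, values are given by library for Sox9, Sox5, Sox6, Col2a1 and Acan, for members with the smallest adjusted p or the largest change, and for those called against both wild type groups. Others were added after their values were seen. Of the other lists, up to 4 called genes per comparison are named.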

Additional observations from a re-analysis of the deposited data

Results flagged for a closer look

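The knockout effect and the AzadC effect, each against its own wild type group, differed for 4 cartilage genes by a test of the difference itself (edgeR interaction contrast over all 12 libraries, adjusted over all tested genes). For Sox9 the difference was -1.62 log2 units (SE 0.25, adjusted p = 0.00341), with all 3 knockout libraries below all 3 AzadC libraries, and the call held in all 19 alternatives (adjusted p up to 0.0130). For Col2a1 it was -1.70 (SE 0.43, adjusted p = 0.0435) and for Sox5 -1.07 (SE 0.25, adjusted p = 0.0294). Col2a1 lost the call in 11 of 19 alternatives (adjusted p up to 0.110) and Sox5 in 8 of 19 (up to 0.0861), among them the leaving out of vehicle 1, 2 or 3 for both. Matn4 differed by -4.27 (SE 0.87, adjusted p = 0.0166) and lost the call without knockout 2 (0.0549), without AzadC 3 (0.0604) and with limma-voom (0.0935). The control and vehicle groups themselves differed in Matn4, by -2.52 in vehicle against control, and that difference enters its value. AzadC against vehicle was 0.05 for Matn4, -0.18 for Sox9, -0.27 for Col2a1 and -0.24 for Sox5.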

How the results depend on the processing

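Over the alternatives, the count of members lower in the knockout than in control stayed within 1.5 times of 21. It ran from 17 to 25 when 1 library was left out, and that of members higher from 0 to 1. In those fits 3.09% to 5.48% of all tested genes were lower and 4.52% to 7.05% higher. Against vehicle the 6 lower members became 12 with no filter (2.84% of all genes) and 13 with only the groups compared (4.22%). With no filter all 36 members were tested. The lower members were 4 to 5 when 1 library was left out, with 0 to 1 higher. In those fits 1.64% to 3.53% of all tested genes were lower and 4% to 5.73% higher. In vehicle against control the 5 lower members became 8 with DESeq2, 3 with limma-voom, 19 with no filter and 3 with the replicate block. The shares over all tested genes there were 4.36%, 2.18%, 2.5% and 1.79%. With 1 library left out the count was 0 to 13, beside shares of 0.48% to 2.04%. For the difference between effects the 4 became 11 with DESeq2, 2 with limma-voom, 21 with no filter and 2 with the replicate block. The shares over all tested genes there were 4.06%, 2.35%, 2.37% and 1.88%. With 1 library left out the count was 1 to 15, beside shares of 0.895% to 2.55%. AzadC against vehicle had 0 in every setting. The cause of these shifts was not tested. For knockout against control and against vehicle, every tested member was followed over the settings. For the other comparisons only Sox9, Sox5, Sox6, Col2a1, Acan, called members and those with the smallest adjusted p were followed. Of the members followed, those not called changed sign only when 1 library was left out. Against control, Epyc then ran from -0.31 to 0.92 (-0.31 without knockout 3 or control 3), Gdf5 from -0.32 to 0.20 (without control 2), Scrg1 from -0.78 to 0.37 (without control 1) and Trps1 from -0.25 to 0.012 (without control 2). Against vehicle, Chst11 ran from -0.22 to 0.040 (0.011 and 0.040 without knockout 1 and 2) and Xylt1 from -0.0010 (without knockout 2) to 0.17. Sox6 in AzadC against vehicle ran from -0.18 to 0.020 (without AzadC 2). In vehicle against control, Col2a1 ran from -0.61 to 0.11 and Sox9 from -0.33 to 0.11, both highest without control 2. The labels do not say what a replicate number shares, and not every pair correlated above 0.1, so the numbers were not taken as pairs: for knockout and control the deviations of same-numbered libraries correlated at 0.259, 0.0725 and 0.221, and 8 of 12 libraries were closest to others of their own number, a hint from the data and not from the design. For the difference between effects a fit of only the groups compared is the same fit and was not run. The 7 members that did not pass the filter, with counts too low in too many libraries, have no test.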
